A study of Mus musculus with 5 samples.

Results

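The clustered protocadherins are cell adhesion proteins whose genes stand in tandem on chromosome 18 of the mouse, in an alpha, a beta and a gamma cluster. Members were chosen by name. A gene of the deposited counts table was taken when its GRCm38 symbol was a protocadherin alpha, beta, gamma A, gamma B or gamma C name followed by its number, or the alpha names with a c and a number. This gave 58 of the 55487 genes of the table, of which 14 were alpha, 22 beta and 22 gamma genes. The study knocked down the long non-coding RNA GAS5 in HT22 cells, an immortalized line derived from mouse hippocampus, in order to find the genes that respond. Cells were transfected at 10 nM siRNA and harvested 48 h later for sequencing of poly(A) RNA. The 5 libraries are 1 from GAS5 siRNA210, 2 from GAS5 siRNA596 and 2 from the negative control siRNA (NC), and the siRNA210 and siRNA596 libraries together form the KD group. All 5 libraries come from the same cell line in the same medium and share the described protocol. A label field of the NC samples reads untreated, while their titles and the study's methods give NC siRNA, which was followed here. No source used here says that the libraries of a group came from separate cultures, and the *P*-values below measure only the spread between these libraries, which may be technical.

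In the alpha and gamma clusters each gene has a large first exon of its own with its own promoter, and that exon is spliced to a short run of constant exons at the end of the cluster. The first exon encodes the extracellular cadherin repeats, the transmembrane segment and part of the cytoplasmic tail, and the constant exons encode the shared end of the tail. Beta genes consist of a single large exon and have no constant exons. In neurons of the brain most of these genes are switched on in few cells each, by a promoter choice in which CTCF, cohesin and DNA methylation take part, so that neighbouring cells carry different combinations and can recognise their own branches by homophilic binding. The genes of the C type, at the end of the alpha and gamma clusters, are instead expressed broadly, and Pcdhgc4 is known for its role in the survival of neurons.

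The library labelled siRNA596 replicate 2 stood apart from the others and went against its label. Gas5, the gene the siRNAs target, was at 90.3 and 76.0 CPM (counts scaled to the library size with edgeR's TMM factors) in NC replicates 1 and 2, at 59.6 in siRNA210 and at 65.8 in siRNA596 replicate 1, but at 179 in the library labelled siRNA596 replicate 2. Between KD and NC, Gas5 had a log2 fold change of 0.29 over all 5 libraries but of -0.41 without that library (adjusted *P* of 0.963 and 0.967 in edgeR). The main tests and the sums by type are therefore given with and without it, and "the 4 libraries" below means the others. Levels per kilobase in the text are over the 4 libraries. Total counts ran from 30660265 to 36492134 per library. Of 14 neuron markers, 2 (Map2 and Tubb3) reached 10 CPM in every library and 10 were under 1 CPM in every library. Snap25, Stmn2 and Dcx were at 0 throughout. The other lists are counted likewise. Of 7 neural progenitor markers 2 reached 10 CPM, Nes at 446 to 509 CPM and Pax6 at 35.7 to 49.3. Msi1 ran from 8.33 to 12.2 CPM and Sox2 was at 0, and the list summed to 505 to 566 CPM. Further, 5 of 10 fibroblast markers reached 10 CPM, the highest being Col1a1 at 2974 to 4413 CPM. Another 3 of the 10 were under 1 CPM, with Lum at 0 in every library. Of 6 astrocyte markers 1 reached 10 CPM, of 6 microglia markers 1 and of 6 oligodendrocyte markers 0. Most of the neuron markers were thus absent from cells labelled as hippocampal neuronal.

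What a count can show differs between the clusters, because the counts are per gene and the constant exons belong to every gene of a cluster. On GRCm38 the alpha genes lie on chromosome 18 from 36930184 to 37187661, the beta genes from 37264938 to 37524479 and the gamma genes from 37661793 to 37841873, all on the plus strand. In the GENCODE M21 annotation of that build a median of 46.4% of an alpha gene's exon bases and 54.7% of a gamma gene's were shared with no other gene, against 100% for the beta genes. A read in a shared exon cannot be given to 1 gene. Levels below are therefore CPM per kilobase of unshared exon, a length taken without regard to strand, and it cannot be told how many reads fell in the constant exons. The 4 other genes that overlap the gamma genes' shared exons were at 0 counts in every library. They are the read-through genes Gm42416, Gm37013 and Gm37388 and the processed transcript Gm38182, which lies within the gamma cluster. Pcdhga10 had 0 unshared bases, because the antisense gene Gm26672 covers its own exon (2613 bases are unshared when only the same strand is considered), and so its 0 counts carry no information unless strand was used. Among the stretches of 50 bases in a gene's own exon, the median share also present in another member was 14.8% for alpha, 4.27% for beta and 0.731% for gamma genes. The highest share was 23.4% in the alpha cluster (Pcdha7), 12% in the beta cluster (Pcdhb12) and 17.9% in the gamma cluster (Pcdhgb2), and reads from such stretches may be split or lost.

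HT22 cells expressed the clustered protocadherins unevenly. No alpha gene had a count, while the 3′ stretch of the beta cluster and most of the gamma cluster were expressed, with Pcdhgc3 far above the rest. Of the 58 genes, 21 had over 3 counts in every library, 10 beta and 11 gamma. Leaving out the library labelled siRNA596 replicate 2 raised this to 26, all of the difference in the gamma cluster, where 16 genes passed. A further 14 genes passed 3 counts in some library only, and 23 were at 3 counts or fewer in every library, 19 of them at 0 throughout. Under a stricter limit of 10 counts in every library 16 genes passed, or 22 in the 4 libraries, and at 1 CPM in every library 7 passed, or 14. Among member values of 1 to 10 counts, 45 of 50 were even numbers, against 66.9% of such values over all genes and 50% of values over 1000. Low counts may thus rest on fewer independent fragments than their size, which was not tested, and how pairs of reads were counted is not given in the sources used here.

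**Figure D1:**
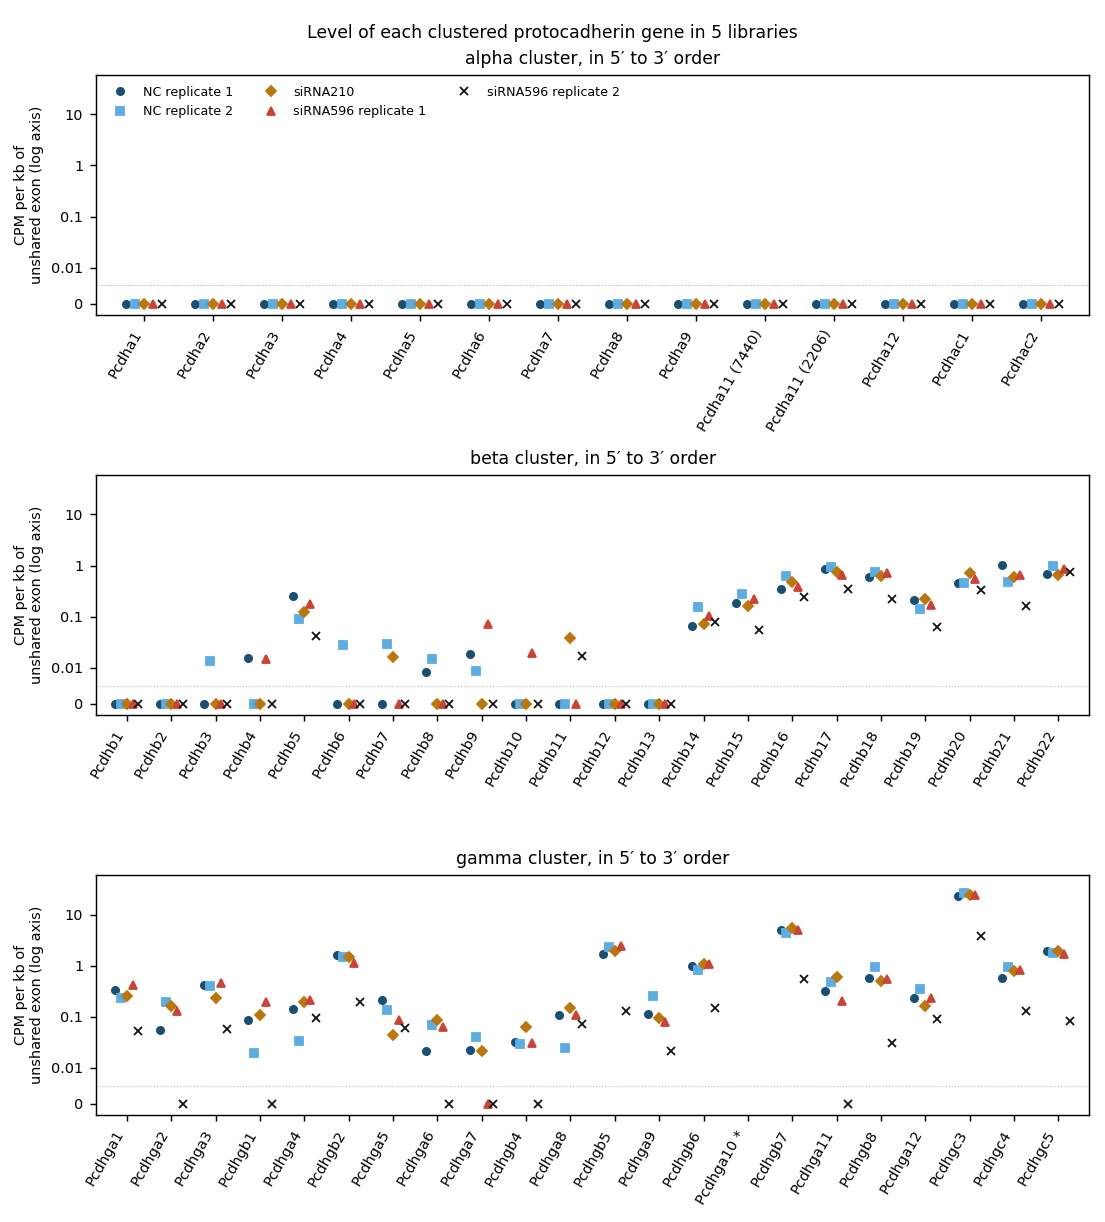
Level of each of the 58 clustered protocadherin genes in the 5 libraries, in CPM per kilobase of unshared exon on a log axis, with genes in their 5′ to 3′ order within each cluster and libraries that had no counts placed on the line marked 0 (the asterisk marks Pcdhga10, which has no unshared exon). All alpha genes sit at 0, the beta genes from Pcdhb14 on sit above nearly all beta genes before them, and Pcdhgc3 is the highest at 24.5 ± 1.52 over the 4 libraries (SD, n = 4).

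No read was assigned to any of the 14 alpha genes in any of the 5 libraries. The 12 numbered alpha genes and the C-type genes Pcdhac1 and Pcdhac2 were alike in this. The annotation gives the name Pcdha11 to a pair of them, ENSMUSG00000007440 and ENSMUSG00000102206, and RefSeq's table for GRCm38.p6 lists Pcdha10 at the place of the first. Their unshared exon ran from 404 bases in Pcdha4 to 3028 in Pcdhac2. In Pcdha4 the unshared part of the longest transcript, 5363 bases long, ended 5360 bases from the 3′ end. In ENSMUSG00000102206 it ended 2860 bases from the 3′ end, with its middle at 2886.5. Few unshared bases of this pair of genes thus lie in their longest transcripts, and their 0 counts carry little information. The other alpha genes had a longer stretch in which a read could be counted. A count of 0 allows up to 3 counts, which corresponds to 0.0781 to 0.114 CPM depending on the library. Against that limit the gamma genes had summed counts 979 to 1191 times higher in the 4 libraries and the beta genes 258 to 321 times higher. In the library labelled siRNA596 replicate 2 they were 101 and 106 times higher. These limits, and the intervals below, cover counting error only. Pcdhac1 and Pcdhac2 shared no 50-base stretch with another member, unlike the numbered alpha genes.

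In the beta cluster the level followed the place. The 9 genes from Pcdhb14 to Pcdhb22 all averaged at least 10 counts per library, whereas of the 13 genes from Pcdhb1 to Pcdhb13 only Pcdhb5 did. The 9 genes together had 756 and 937 counts in NC replicates 1 and 2, 750 in siRNA210, 768 in siRNA596 replicate 1 and 312 in siRNA596 replicate 2. The 12 genes from Pcdhb1 to Pcdhb13 without Pcdhb5 had 5, 13, 8, 12 and 2 counts in the same order, and Pcdhb1, Pcdhb2, Pcdhb12 and Pcdhb13 were at 0 in every library. Over all 22 genes Spearman's rho between place and mean level in the 4 libraries was 0.77, a description over neighbouring genes measured in the same libraries. For the 18 genes of the gamma A and gamma B types with place among themselves it was 0.31, without Pcdhga10.

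Pcdhb22, the last beta gene, had 145 and 230 counts in NC replicates 1 and 2, 145 in siRNA210, 189 in siRNA596 replicate 1 and 122 in siRNA596 replicate 2. Pcdhb17 had 139, 171, 123, 107 and 42 counts in the same order of libraries. Pcdhb18 had 108, 148, 115, 132 and 30. These were the beta genes with the most counts, and each had its fewest in siRNA596 replicate 2, although after scaling Pcdhb22 was at 4.62 CPM there, within the 4.05 to 5.99 CPM of the other libraries. Per kilobase over the 4 libraries Pcdhb17 stood at 0.796 ± 0.136 CPM (SD, n = 4), Pcdhb22 at 0.790 ± 0.153 and Pcdhb18 at 0.686 ± 0.0744, and their ranges overlapped.

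Pcdhb21 had 151 counts in NC replicate 1, 79 in NC replicate 2, 93 in siRNA210, 100 in siRNA596 replicate 1 and 18 in siRNA596 replicate 2. Pcdhb16 had 63, 127, 88, 71 and 34 in that order, and Pcdhb20 had 58, 62, 92, 71 and 32. The NC libraries differed from each other in Pcdhb21 and Pcdhb16 by more than either differed from the siRNA210 library, and in opposite directions. Pcdhb19 had 54, 38, 56, 44 and 12 counts, Pcdhb14 had 20, 52, 22, 32 and 18, Pcdhb15 had 18, 30, 16, 22 and 4, and Pcdhb5 had 31, 12, 16, 22 and 4. Pcdhb14 has the longest exon of the cluster, 8695 bases, and at 0.0987 ± 0.0415 CPM per kilobase (SD, n = 4) it was the lowest of the 9 genes of the 3′ stretch.

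The gamma A and gamma B genes alternate along the gamma cluster, and the B genes had the higher median, though not every B gene was high. The median level over the 4 libraries was 0.983 CPM per kilobase for the 7 gamma B genes and 0.137 for the 11 gamma A genes with unshared exon. Pcdhgb7 had 318 and 307 counts in NC replicates 1 and 2, 364 in siRNA210, 325 in siRNA596 replicate 1 and 27 in siRNA596 replicate 2. Pcdhgb5 had 271, 417, 317, 392 and 16 counts in that order. Both were lowest in the last library, at 11.3% and 6.31% of the mean CPM of the others. Pcdhgb2 had 160, 158, 145, 112 and 14 counts, and Pcdhgb6 had 88, 81, 98, 98 and 10. Pcdhgb8, annotated as a polymorphic pseudogene, had 50, 90, 44, 49 and 2. The remaining B genes, Pcdhgb1 and Pcdhgb4, ran from 2 to 18 and from 4 to 8 counts in the 4 libraries and were at 0 in the library labelled siRNA596 replicate 2. Per kilobase they stood at 0.101 and 0.0385 CPM over the 4 libraries, below the gamma A median.

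None of the 12 gamma A genes exceeded 60 counts in a library. Pcdhga12 had 34, 55, 24, 35 and 10 counts in NC replicate 1, NC replicate 2, siRNA210, siRNA596 replicate 1 and siRNA596 replicate 2. Pcdhga3 had 39, 40, 22, 42 and 4, and Pcdhga1 had 34, 25, 26, 42 and 4. These 3 genes led the type by counts and were each lowest in the last library. Pcdhga11 had 14, 23, 27, 9 and 0 counts, Pcdhga9 had 14, 34, 12, 10 and 2, and Pcdhga2 had 5, 19, 15, 12 and 0. The other gamma A genes stayed at 19 counts or below in every library, from Pcdhga5 down to Pcdhga7, which never passed 4 counts, and Pcdhga10 at 0.

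The gamma C genes took most of the gamma counts. Pcdhgc3 had 1470 counts in NC replicate 1, 1854 in NC replicate 2, 1555 in siRNA210, 1599 in siRNA596 replicate 1 and 181 in siRNA596 replicate 2. Pcdhgc5 had 320, 310, 314, 278 and 10 counts in that order, and Pcdhgc4 had 69, 126, 100, 101 and 12. The 4 libraries lay close together for Pcdhgc3 and Pcdhgc5, with coefficients of variation of 6.22% and 7.26%, while Pcdhgc4 varied by 20.3%. Pcdhgc3 made up 50.1% of all counts given to gamma genes in NC replicate 1 (95% Wilson interval 48.2 to 51.9), 51.9% in NC replicate 2 (50.2 to 53.5), 49.9% in siRNA210 (48.1 to 51.6) and 50.6% in siRNA596 replicate 1 (48.9 to 52.3). In siRNA596 replicate 2 it was 59.5% (53.9 to 64.9) of only 304 counts. Pcdhgc3 thus kept near the same share of the cluster in the 4 libraries. The KD and NC intervals overlapped, but they cover counting error within each library and not the spread between libraries, so they do not test KD against NC.

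Per kilobase of unshared exon, Pcdhgc3 was at 24.5 ± 1.52 CPM over the 4 libraries (SD, n = 4), 4.92 times Pcdhgb7, which followed at 4.97 ± 0.486. Next came Pcdhgb5 at 2.08 ± 0.344 and Pcdhgc5 at 1.83 ± 0.133, whose ranges overlapped. The 4614 unshared bases of Pcdhgb5 exceed what its longest transcript holds, since 2119 of that transcript's 4670 bases lie beyond the unshared part. Its level per kilobase may therefore be understated, and its place against Pcdhgb7 and Pcdhgc5 is not settled. Pcdhgb2 at 1.43 ± 0.216 and Pcdhgb6 at 0.983 ± 0.115 were the fifth and the sixth, each apart from the gene above it. From Pcdhgb6 down through all genes with a count, each gene's range overlapped that of the next, so the order there is not settled. The lead of Pcdhgc3 depends in size on its length. An antisense gene, BC037039, covers part of its exon, and with the bases unshared on the same strand its level was 13.2 CPM per kilobase against 3.50 for Pcdhgb7. Per kilobase of all exons the values were 8.10 and 1.92, so Pcdhgc3 was the highest under each length. Lower places depended on the length. On that of all exons Pcdhgb6 was at 0.538 CPM, below Pcdhb17 at 0.796 and Pcdhb22 at 0.735, and Pcdhgb2 was at 0.811.

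**Figure D2:**
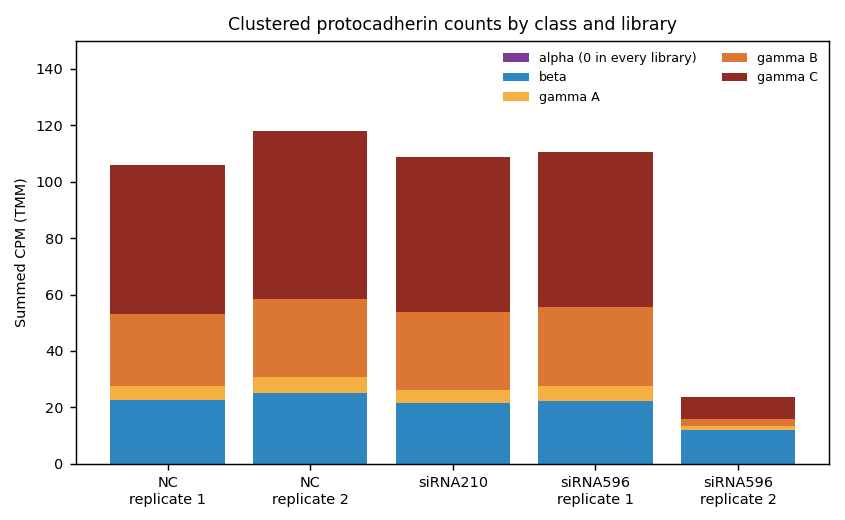
Summed CPM of the clustered protocadherin genes in each library, stacked by class, with bars starting at 0 and no error bar because each bar is 1 library. Gamma C genes form the largest block in the 4 libraries, at 52.8 to 59.7 CPM, and the library labelled siRNA596 replicate 2 is lower in every class that has counts, with beta its largest block at 12.0 CPM.

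To see whether GAS5 knockdown changed these genes, the KD and NC libraries were compared with edgeR's quasi-likelihood test over all genes that passed its filter on low counts, 16142 with 5 libraries. In both fits 26 members were tested, 10 beta, 8 gamma A, 5 gamma B and all 3 gamma C genes, and the alpha genes were not. None passed an adjusted *P* of 0.05 with 5 libraries, where 0% of all genes did, nor with the 4 libraries, where the share was also 0%. None passed an unadjusted *P* of 0.05 either, against 0.372% of all genes with 5 libraries and 3.3% with the 4. DESeq2 gave the same count of 0 members at both limits and with either set of libraries. Of all genes, 0.539% passed its unadjusted limit with 5 libraries and 2.32% with the 4, and 0 and 1 genes passed the adjusted limit. In bulk RNA, fewer cells that express a gene and less of its RNA per cell cannot be told apart.

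The direction of the members' fold changes rested on 1 library. With all 5 libraries the log2 fold change, KD minus NC, was below 0 for 24 of the 26 members, with a median of -0.48 against 0.01 over all genes. Without the library labelled siRNA596 replicate 2 it was below 0 for 16 and above 0 for 10, with a median of -0.09 against -0.00. Pcdhgc3 was at 45.0 ± 4.62 CPM in NC (SD, n = 2) and at 31.7 ± 21.5 in KD (SD, n = 3), or 44.0 ± 0.865 without that library (n = 2). In edgeR this came to -0.51 ± 0.73 on the log2 scale (standard error) with 5 libraries and to -0.03 ± 0.11 with the 4, with adjusted *P* of 0.963 and 0.982. Pcdhgc5 moved likewise from -0.60 to -0.06 and Pcdhgc4 from -0.37 to 0.09.

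The sums over each type gave the same picture. The beta genes summed to 23.8 ± 1.81 CPM in NC (SD, n = 2) and to 22.0 ± 0.551 in the KD libraries other than siRNA596 replicate 2 (SD, n = 2). For gamma C the sums were 56.2 ± 4.83 and 55.1 ± 0.173, for gamma B 26.6 ± 1.45 and 27.7 ± 0.235, and for gamma A 5.46 ± 0.530 and 4.83 ± 0.434. Without that library the log2 ratios of the means were -0.11 for beta, -0.03 for gamma C, 0.06 for gamma B and -0.18 for gamma A. With it they were -0.35, -0.52, -0.46 and -0.59, so the sign for gamma B depended on it.

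**Figure D3:**
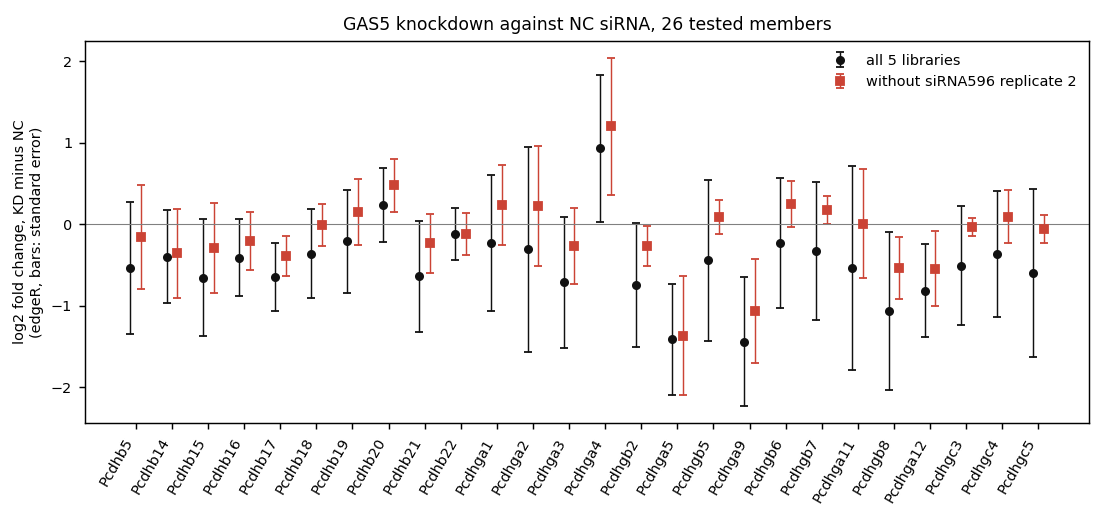
Log2 fold change between KD and NC with its standard error, from edgeR, for the 26 tested members in chromosomal order, with all 5 libraries (circles) and without the library labelled siRNA596 replicate 2 (squares). With 5 libraries 24 of 26 values lie below 0 and their median is -0.48, and without that library the values lie on both sides with a median of -0.09.

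The members with the smallest *P* were of low count. Pcdhga5 had 19 and 13 counts in NC replicates 1 and 2, 4 in siRNA210, 8 in siRNA596 replicate 1 and 4 in siRNA596 replicate 2, so its KD libraries all lay below its NC libraries. In edgeR its log2 difference was -1.41 ± 0.68 (standard error) with 5 libraries and -1.37 ± 0.73 with the 4, with adjusted *P* of 0.963 and 0.967. Pcdhga4 was the highest at 0.93 and 1.20 in the same fits, on 8, 2, 11, 12 and 4 counts. With the 4 libraries, KD and NC did not overlap for 9 of the 26 members. Pcdhb20, Pcdhga4, Pcdhgb6 and Pcdhgb7 were higher in KD, 4 of 26 against 16.7% of all genes. Pcdhb17, Pcdhga5, Pcdhga9, Pcdhgb2 and Pcdhgb8 were lower, 5 of 26 against 16.2% of all genes. With 5 libraries the same 5 members were lower without overlap, where 9.48% of all genes were, and 0 were higher, where 8.32% were. The counts from the 4 libraries are near their background shares. With 5 libraries more members were lower than that share would give and fewer were higher. Among the more abundant of them, Pcdhb17 stood at 4.20 ± 0.357 CPM in NC and 3.21 ± 0.316 in the KD libraries other than siRNA596 replicate 2 (SD, n = 2 each), a log2 fold change of -0.39 (standard error 0.24, adjusted *P* = 0.967 in edgeR).

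Between the siRNAs no member passed an adjusted *P* of 0.05 in edgeR, with all 5 libraries or with the 4, where 0% and 0% of all genes did. None passed an unadjusted *P* of 0.05, against 0.248% and 0.731% of all genes. The median log2 difference over the members, siRNA210 minus siRNA596, was 0.60 with 5 libraries and -0.07 with the 4, in which each siRNA has 1 library. When siRNA596 was represented by its replicate 2 alone, 10 of 25 members passed the adjusted limit, where 43.9% of all genes did. That contrast sets 1 library against 1, its spread comes from the NC pair alone, and it compares those libraries and not the siRNAs.

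The largest differences in these genes lay between the library labelled siRNA596 replicate 2 and the other 4. This compares 1 library with the rest and has no replicate. Genes past a 2-fold difference were counted on CPM + 0.1, and the ratios of single genes and sums below use CPM as such. Of the 26 tested members 20 were lower there by over 2-fold, 6 of 10 beta and 14 of 16 gamma genes, against 21.8% of all genes. Among the 4 libraries, each set against the mean of the others, 0 to 2 members differed by over 2-fold. Summed, the gamma genes were at 13.1% of the mean of the other libraries and the beta genes at 52.6%, with gamma B at 9.63%, gamma C at 13.8% and gamma A at 23.5%. The ratio of beta to gamma counts was 0.248 to 0.270 in the 4 libraries and 1.05 in that one. The gamma cluster thus stood further below the rest than the beta cluster.

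Of the members with over 3 counts in that library and a mean of at least 10, the 10 beta genes had log2 differences from -2.11 to -0.07 with a median of -1.39, and the 10 gamma genes from -4.48 to -1.42 with a median of -2.72. Pcdhb22 was at 95.0% of the mean of the other libraries and Pcdhb14 at 79.4%, whereas Pcdhgc5 was at 4.49% and Pcdhgb5 at 6.31%. The 12 tested protocadherins and related cadherins outside the clusters were also lower there than in each of the 4 libraries. Pcdh17 was at 53.4 CPM against 152 to 187, Pcdh19 at 65.1 against 153 to 208 and Pcdh18 at 39.3 against 57.2 to 76.5. A lower level in that library was thus not particular to the clustered genes. Genes next to the members outside the family went both ways. Taf7, which lies between the beta and the gamma genes, was at 120%, Diaph1, beyond the gamma cluster, at 81.3%, and Hdac3 at 149%. Slc25a2, also between the beta and the gamma genes, had 6 and 5 counts in NC replicates 1 and 2, 8 in siRNA210, 9 in siRNA596 replicate 1 and 0 in siRNA596 replicate 2. The antisense gene Gm26672 had 12, 6, 10, 7 and 0 counts in that order, Gm29994 had 14, 8, 6, 11 and 0, and the lincRNA 3222401L13Rik had 12, 8, 17, 6 and 2. These 4 genes of low count were lowest in the last library as well, but others in the locus were not. The pseudogene Gm8242 had 36, 66, 56, 40 and 121 counts in that order, and the antisense gene BC037039 had 10, 2, 10, 12 and 15. Both were highest in the last library. The lincRNA 4930517L18Rik had 0, 5, 9, 4 and 5. Among these genes the unshared part of a beta gene ended 0 to 455 bases from the 3′ end of the longest transcript. That of a gamma gene ended 2119 bases from it, since the constant exons follow. Only Pcdhgc5, whose longest annotated transcript has 3 exons and not 4, ended at 410, so its distance is not like the others. Over the 20 genes Spearman's rho between the log2 difference and the distance from the middle of the unshared part to the 3′ end was -0.19, a description within 1 library. The tested members were long, with a median of 4819 exon bases against 3710 over all genes. An offset for the trend with exon length in each library left their median log2 fold change between KD and NC at -0.46. The part of RNA quality in this library's values was not tested.

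**Figure D4:**
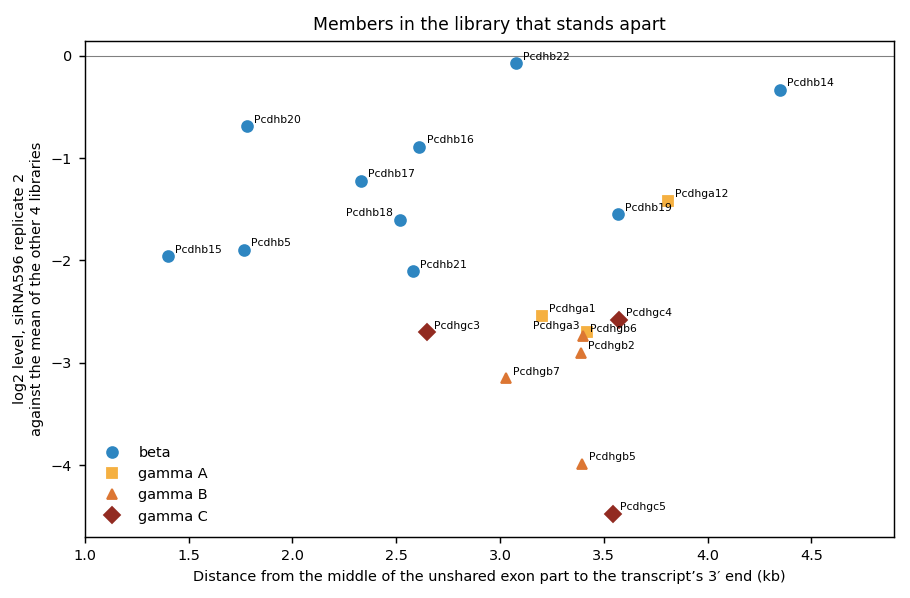
Log2 level in the library labelled siRNA596 replicate 2 against the mean of the other 4 libraries, for the 20 members with a mean of at least 10 counts and over 3 counts in that library, plotted by the distance in kilobases from the middle of the unshared exon to the 3′ end of the transcript. All 20 points lie below 0, from -0.07 for Pcdhb22 to -4.48 for Pcdhgc5, and most gamma genes lie below the beta genes at like distances.

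Transcripts of the proteins that act on these promoters were present in HT22 cells, and none passed the test between KD and NC. Of 31 tested genes on a list of promoter choice and silencing factors, none passed an adjusted *P* of 0.05 in edgeR with either set of libraries. Over all genes 0% passed with either set. The list's median log2 fold change was -0.28 over 5 libraries and -0.05 over the 4, against 0.01 and -0.002 over all genes. Ctcf, the insulator protein that pairs promoters with enhancers in these clusters, was at 98.6 and 118 CPM in NC, 103 in siRNA210, 107 in siRNA596 replicate 1 and 80.6 in siRNA596 replicate 2. The cohesin subunits Rad21 and Smc3, the loader Nipbl and the release factor Wapl had log2 fold changes of -0.20, -0.12, -0.13 and -0.03 with the 4 libraries. Smchd1, a silencer of clustered genes, ran from 196 to 210 CPM in the 4 libraries and was at 91.7 in the other. Of the DNA methyltransferases, Dnmt1 ran from 500 to 526 CPM in the 4 libraries and Dnmt3a from 52.1 to 55.7, while Dnmt3b, which methylates these promoters early in development, was at 1.08 to 1.82. Setdb1 and Trim28, which act together in histone H3 methylation, had log2 fold changes of -0.03 and -0.05 with the 4 libraries, and the repressor Rest 0.01.

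Among 26 tested adhesion signalling partners none passed the adjusted limit in edgeR with either set of libraries, where 0% of all genes did. Their medians were -0.07 and -0.004, against 0.01 and -0.002 over all genes. The kinase Ptk2, which the protocadherin tails bind and inhibit, ran from 135 to 154 CPM in the 4 libraries, whereas its relative Ptk2b was at 0.0781 to 0.447. Fyn had a log2 fold change of 0.09 with the 4 libraries, Marcks -0.14, and Adam10, a protease that cuts protocadherins, -0.17. Of 12 tested protocadherins and related cadherins outside the clusters none passed either, with medians of -0.45 and -0.08 against the same 0.01 and -0.002. The 3 protocadherins with the highest level per kilobase of exon among them were Pcdh19 at 16.4, Pcdh17 at 12.6 and Pcdh18 at 11.7 CPM in the 4 libraries. They stood above every clustered gene on the scale of all exons, and above every one but Pcdhgc3 on that of unshared exon.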

How the data were processed

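RNA-Seq counts of 5 HT22 libraries were used. The authors deposited raw counts, that is reads per gene as integers with no scaling, which they had made with Trimmomatic, HISAT2 2.1.0, SAMtools 1.7 and featureCounts 2.0.1 on the Ensembl annotation of GRCm38. The overlap, strand, pairing and multiple-mapping settings are not given in the sources used here. A second table holds the authors' own DESeq2 1.26.0 comparison (fold changes and *P*-values) and was not used.

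Members were matched by identifier through GENCODE M21, which named 99.5% of the genes. The members, gene lists and tests were chosen with earlier results of these data known. Tests used edgeR 4.0.16 in R 4.3.3 with TMM, filterByExpr and Benjamini-Hochberg adjustment over all genes tested. DESeq2 1.42.0 served as an alternative. The fitting steps were first tested on simulated counts. Counts of 3 or fewer were treated as the floor. Total counts were 33884066 and 36492134 in NC, 34939173 in siRNA210, and 34535873 and 30660265 in siRNA596. Genes described in full had a mean of at least 10 counts or were of the C type or had an unadjusted *P* under 0.05 in either fit. Pcdhga4, Pcdhga5, Pcdhga7 and the other members outside that rule were named after their values were seen. The list genes named were regulators and partners picked by function, of which 1 is not reported here, and the 3 most abundant protocadherins outside the clusters, with Gas5 as the check of the labels. Alternatives covered each library left out in turn (which without siRNA210 is siRNA596 against NC alone), a replicate block, other size factors, filters, DESeq2, robust fitting, an exon length offset and other lengths. Sequences are not shown. Plots were made in matplotlib 3.10.9 under Python 3.11.15.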

Additional observations from a re-analysis of the deposited data

How the results depend on the processing

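In the comparison of KD with NC no member was called at an adjusted *P* of 0.05 under any alternative run, in edgeR or DESeq2. This is near the share over all genes. There 0 passed in edgeR with 5 libraries and with the 4, and in DESeq2 0 of 16142 and 1 of 15867 did. At an unadjusted *P* of 0.05 the count was 0 except with a replicate block, and with 1 NC library left out beside siRNA596 replicate 2. With the replicate block, siRNA596 against NC, 5 of 25 members passed, against 2.70% of all genes. The correlation of the pairs' deviations was 0.0948. Since siRNA596 replicate 2 stands apart from the other libraries, this cannot tell whether the pairs share more than a number. With the 4 libraries, leaving out NC replicate 1 gave 2 of 28 members (16.5% of all genes) and leaving out NC replicate 2 gave 1 of 28 (2.52%), choices added after the data were seen, and the lone NC library is assumed to vary like the KD pair. Between siRNA210 and siRNA596, leaving out 1 siRNA596 library gave 0 to 10 members called and 0 to 14 at an unadjusted *P*, the high values without replicate 1, where 43.9% and 52.6% of all genes passed. Detection fell from 21 genes to 7 when at least 1 CPM was asked for in every library, and from 26 to 14 in the 4 libraries.

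The log2 fold change of several members changed sign, none of them called. Of 26 members 8 did so without siRNA596 replicate 2. With each library left out in turn these members ranged as follows: Pcdhb5 from -1.10 to 0.38, Pcdhb14 from -0.89 to 0.36, Pcdhb16 from -0.79 to 0.093, Pcdhb19 from -0.57 to 0.15, Pcdhb20 from -0.025 to 0.48, Pcdhb22 from -0.37 to 0.17, Pcdhga1 from -0.85 to 0.23, Pcdhga2 from -0.94 to 0.83, Pcdhgb5 from -0.97 to 0.090, Pcdhgb6 from -0.55 to 0.25, Pcdhgb7 from -0.75 to 0.17, Pcdhga11 from -1.88 to 0.0064 and Pcdhgc4 from -0.69 to 0.094. With the replicate block Pcdhb20 was at -0.066, and with the exon length offset Pcdhb22 was at 0.023. The causes were not tested. DESeq2 size factors, library size only, no filter and robust fitting reversed none. Depth limits the low genes most, and siRNA210 has 1 library.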
